A study of Mus musculus with 24 samples.

Results

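The genes that encode subunits of the oxidative phosphorylation complexes were followed across the thymus of mice lacking p27, stathmin or both. They were taken by name: every gene probe whose name began with Nduf, Uqcr, Atp5, Cox4, Cox5, Cox6, Cox7 or Cox8, or was Sdha, Sdhb, Sdhc or Sdhd. This gave 113 of 41174 gene probes and 82 of 27962 gene names. Of these probes 109 passed the filter on dim probes, and all 82 genes were tested among 24113. By name, 36 genes belonged to complex I, 4 to complex II, 7 to complex III, 17 to complex IV and 15 to complex V. The other 3 were caught by their names alone: Ndufaf1 is an assembly factor of complex I, Atp5s is now called Dmac2l, and Cox4nb is now called Emc8, an endoplasmic reticulum protein. Ndufa4 was counted with complex I by its name, although its product is known as a complex IV subunit.

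Thymus RNA came from C57BL/6 mice aged 15 weeks, 6 per genotype, with 3 females and 3 males in each and the sex of single mice not given. The genotypes were wild type, p27 knockout (p27Kip1, encoded by Cdkn1b, inhibits cyclin-dependent kinases), stathmin knockout (stathmin, encoded by Stmn1, destabilises microtubules) and double knockout. The title of the study places p27 and stathmin in the control of proliferation in the animal. Each 2-colour array set one thymus, in Cy5, against a pool of RNA from fibroblasts of all the genotypes, in Cy3, so every log2 ratio below is a thymus level relative to that pool. The labels give no detail of the knockout alleles, all thymus cells were lysed together, and in such bulk RNA fewer cells of a type and less RNA per cell cannot be told apart.

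Oxidative phosphorylation takes place in the inner mitochondrial membrane. Complex I (NADH dehydrogenase) and complex II (succinate dehydrogenase) pass electrons to ubiquinone, complex III hands them to cytochrome c, complex IV (cytochrome c oxidase) passes them to oxygen, and complex V (ATP synthase) uses the proton gradient to make ATP. Most subunits are encoded in the nucleus, among them all those measured here, and many of their promoters are known to carry sites for NRF1 or for ETS-family factors such as GABP. Several complex IV subunits exist as a widely expressed form and a form of heart, skeletal muscle or brown fat, while the thymus consists mostly of developing T cells.

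The upstream sequences of 67 of the 82 genes were found in the RefSeq promoter table (build GRCm38.p6). Within the 250 bases before the start, the NRF1 motif (GCGCA and GCGC with any 1 base between them), on either strand, was present in 12 of the 67 genes (17.9%), against 1044 of all 27025 genes in the table (3.86%). The ETS motif CCGGAAG, on either strand, was present in 12 of the 67 (17.9%), against 1906 of all genes (7.05%). Both motifs occurred in 3 genes (Atp5h, Cox6a1 and Sdhd) and at least one in 21. Neither motif contains the other, and a match describes the letters only. Stretches of 100 bases are given for 6 genes whose levels are described below, 5 of them among the genes that passed the test in the double knockout against the p27 knockout, with the motif in capitals (CTTCCGG is the ETS motif read on the other strand). The first group carries the NRF1 motif.
Sdha, chr13:74350241-74350340, minus strand: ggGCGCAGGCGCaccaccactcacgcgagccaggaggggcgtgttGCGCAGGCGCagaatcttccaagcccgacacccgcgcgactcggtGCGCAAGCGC
Ndufa11, chr17:56717657-56717756, plus strand: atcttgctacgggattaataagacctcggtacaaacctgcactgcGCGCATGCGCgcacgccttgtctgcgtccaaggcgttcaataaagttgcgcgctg
Cox6a1, chr5:115349021-115349120, minus strand: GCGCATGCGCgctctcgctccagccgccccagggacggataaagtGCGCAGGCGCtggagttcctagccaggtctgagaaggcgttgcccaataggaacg
The second group carries the ETS motif.
Cox6b1, chr7:30626115-30626214, minus strand: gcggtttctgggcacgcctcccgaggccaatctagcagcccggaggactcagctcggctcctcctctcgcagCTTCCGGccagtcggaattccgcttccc
Ndufb6, chr4:40279572-40279671, minus strand: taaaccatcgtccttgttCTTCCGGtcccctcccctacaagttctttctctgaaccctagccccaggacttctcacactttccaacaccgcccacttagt
Uqcr (now Uqcr11), chr10:80406835-80406934, minus strand: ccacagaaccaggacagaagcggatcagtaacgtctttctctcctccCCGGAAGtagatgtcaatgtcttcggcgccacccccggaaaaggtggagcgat
The stretch shown for Sdha holds the NRF1 motif at 3 places. Of the 14 matched genes that were higher in the double knockout than in the p27 knockout, described below, 3 (21.4%) held the NRF1 motif and 4 (28.6%) the ETS motif.

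Both deleted genes were read as a check of the labels. On the brightest Cdkn1b probe the log2 ratio was 1.37 to 2.19 in wild type and 1.21 to 2.30 in the stathmin knockout, against -0.66 to 0.98 in the p27 knockout and -1.41 to 0.97 in the double knockout, with 5 of 6 wild-type and 5 of 6 double knockout arrays giving a value. On the brightest Stmn1 probe it was 3.22 to 3.87 in wild type, 1.72 to 2.29 in the stathmin knockout and 1.22 to 2.87 in the double knockout, but -0.76 to 4.09 in the p27 knockout, whose range covers those of the other knockouts. The other Stmn1 probe read 2.69 to 3.34 in wild type and 0.79 to 3.22 in the p27 knockout, against -3.65 to -1.87 in the stathmin knockout and -3.80 to -2.84 in the double knockout. One of the other Cdkn1b probes overlapped in all 4 genotypes. The ranges thus followed the labels on some probes only, and whether the probes lie inside the deleted parts was not known. Replicates 5 and 6 of the p27 knockout stood apart from the rest. The 99th percentile of their Cy5 intensity was 50.7 and 19.4 kilo-units, against 56.3 to 340 in the wild type, stathmin and double knockout arrays, and across genes their ratios had a mean correlation of 0.589 and 0.204 with the rest, against 0.779 to 0.866 for each of the other 22 arrays. Markers of double-positive thymocytes, the main thymus cell, had a median log2 ratio of 0.82 in p27 knockout replicate 6 and of 5.05 to 7.22 in the other 23 arrays. Results that use the p27 knockout are therefore given with all its arrays and, after them, without these 2, called the dim arrays below. On the same brightness measure, p27 knockout replicates 1 to 4 read 75.3 to 171 kilo-units and the double knockout arrays 200 to 320. Between these genotypes, brightness and genotype thus cannot be told apart, with or without the dim arrays. The 24 arrays lay on 6 slides, with each genotype at a fixed position of the slide, so genotype and position cannot be told apart.

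Most of the 82 genes were at or above the fibroblast level, and the stathmin knockout thymus had the highest values. The median over the 82 genes was 0.85 ± 0.32 (SD over arrays, n = 6) in the stathmin knockout, 0.65 ± 0.25 in the double knockout, 0.42 ± 0.30 in wild type and 0.23 ± 0.28 in the p27 knockout (0.33 ± 0.13, n = 4, without the dim arrays). Array by array it was 0.61, 0.14, 0.42, 0.06, 0.88 and 0.43 in wild type and 1.01, 1.15, 0.41, 0.50, 1.09 and 0.95 in the stathmin knockout. It was 0.21, 0.47, 0.22, 0.41, 0.37 and -0.31 in the p27 knockout and 0.56, 0.97, 0.26, 0.89, 0.55 and 0.66 in the double knockout. Thus 4 stathmin knockout arrays lay above every wild-type array and the other 2 lay inside the wild-type range, while p27 knockout replicate 6 was the only array below 0. The mean was highest in the stathmin knockout for 65 of the 82 genes and in the double knockout for 12, and it was lowest in the p27 knockout for 55 and in wild type for 23, or for 45 and 33 without the dim arrays. A mean above 0 was found for 73 genes in the stathmin knockout, 69 in the double knockout, 60 in wild type and 50 in the p27 knockout (55 without the dim arrays), against 53.4% to 59.7% of all genes.

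In each of complexes I to V the stathmin knockout came first, then the double knockout, wild type and the p27 knockout. For the NADH dehydrogenase genes of complex I, the list median averaged 0.75 in the stathmin knockout, 0.52 in the double knockout, 0.22 in wild type and 0.09 in the p27 knockout. In the same order these averages were 1.25, 0.76, 0.35 and 0.32 for complex III, 1.23, 0.96, 0.64 and 0.51 for complex IV, and 1.04, 0.79, 0.68 and 0.48 for complex V. The p27 knockout without the dim arrays averaged 0.18 in complex I, 0.37 in complex III, 0.57 in complex IV and 0.68 in complex V, so that it was no longer below wild type in complex III and about equal to it in complex V. Complex II differed in that the p27 knockout lay below the pool, at -0.20, against 0.67 in the stathmin knockout, 0.64 in the double knockout and 0.48 in wild type, and replicates 5 and 6 were the lowest of its arrays. Without them the p27 knockout averaged 0.12 in complex II, above the pool and still below the other genotypes.

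**Figure D1:**
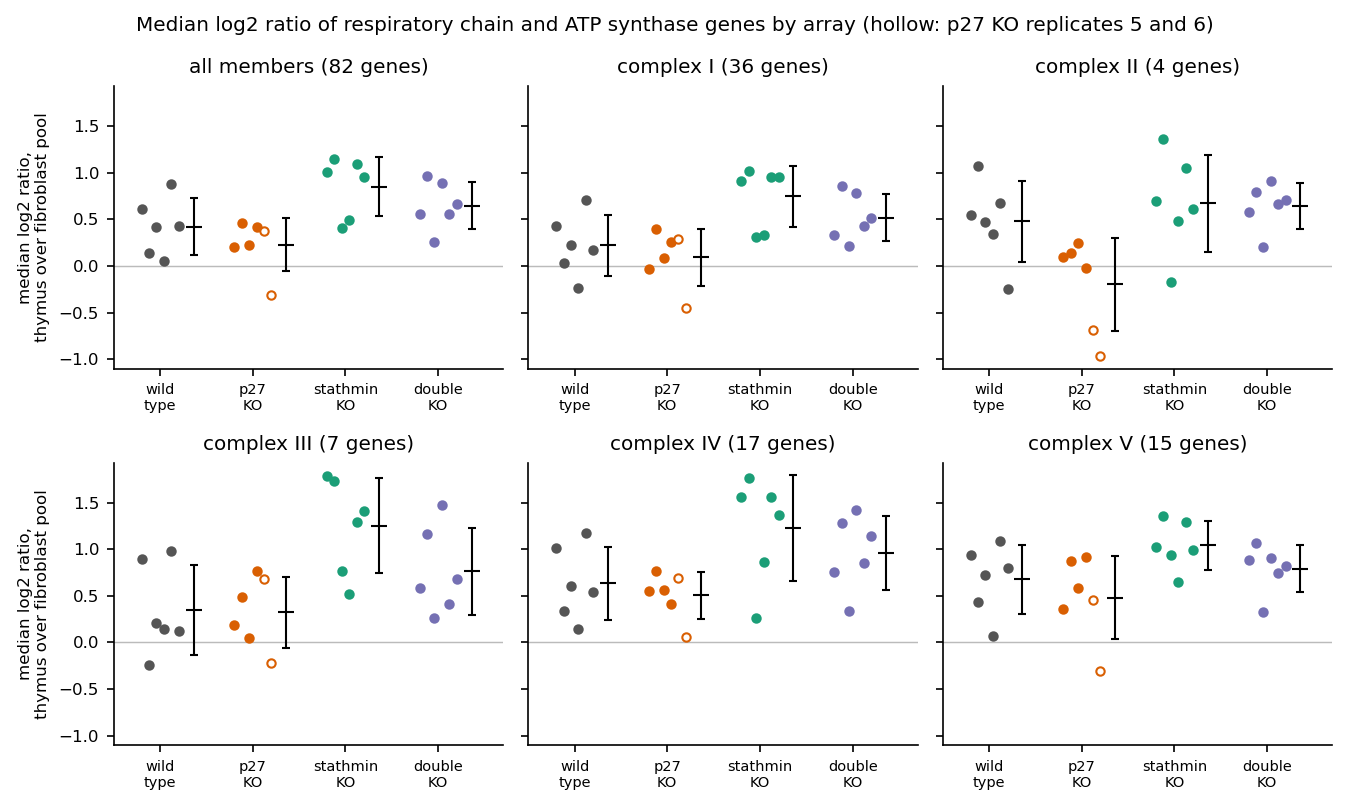
Median log2 ratio (thymus over fibroblast pool, vertical axis) of the genes of each complex on each of the 24 arrays, grouped by genotype. Points are arrays (hollow for p27 knockout replicates 5 and 6) and bars give the mean ± SD. The stathmin knockout arrays reach the highest values in complexes III and IV, with averages of 1.25 and 1.23, and the p27 knockout arrays average -0.20 in complex II, or 0.12 without the hollow points.

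Loss of stathmin alone went with higher readings of nearly the whole set, by a small amount per gene. Of the 82 genes 76 had a higher mean in the stathmin knockout than in wild type, against 46% of all genes tested, and the median difference was 0.40 on the log2 scale, against -0.02 over all genes. No gene of the 82, and none of the 24113 genes (0% called), passed limma's moderated test with Benjamini-Hochberg adjustment at 0.05. At an unadjusted p under 0.05, 33 of the 82 genes were higher and 0 lower, against 2.44% higher of all genes. Readings were higher on 6 of 6 slides for 31 of the 82, against 2.89% of all genes, and the median over the 82 was above 0 on each of the 6 slides, at 0.16 to 0.94.

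All 36 genes of complex I had a positive difference, with a median of 0.43, and 17 had an unadjusted p under 0.05. The 7 core subunits, which carry the flavin and the iron-sulfur clusters, had a median of 0.33, and the 28 supernumerary subunits had one of 0.44. Ndufc1, a small supernumerary subunit, gave -0.42, 0.02 and 0.52 (lowest, median and highest of 6) in wild type and 0.38, 0.98 and 1.23 in the stathmin knockout. Its difference was 0.81 ± 0.24 (SE; 95% interval 0.32 to 1.31; adjusted p = 1.00), and the ranges overlapped only between 0.38 and 0.52. Ndufa1, another supernumerary subunit, gave 0.20, 1.06 and 1.63 in wild type and 1.16, 1.91 and 2.29 in the stathmin knockout. Its difference was 0.90 ± 0.28, above 0 on 6 of 6 slides (adjusted p = 1.00). Ndufb9 differed by 0.69 ± 0.21 and Ndufb8 by 0.74, while among the catalytic subunits Ndufv1, the NADH-binding one, differed by 0.54 and Ndufs1 by 0.23, each with an adjusted p of 1.00. Ndufab1, the mitochondrial acyl carrier protein, differed by 0.50.

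In complex II all 4 differences were positive and small: 0.25 for the flavoprotein Sdha, 0.07 for the iron-sulfur subunit Sdhb, and 0.27 and 0.33 for the membrane anchors Sdhc and Sdhd. None had an unadjusted p under 0.05.

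In complex III the median difference was 0.55, with 7 of 7 genes positive and 5 at an unadjusted p under 0.05. Uqcr, a small subunit whose ETS-bearing promoter is shown above, gave -0.24, 0.97 and 1.40 in wild type and 0.76, 1.94 and 2.39 in the stathmin knockout. Its difference was 1.04 ± 0.34 (95% interval 0.33 to 1.75; adjusted p = 1.00). Wild-type replicates 5, 1 and 6 and stathmin knockout replicate 4 made up the overlap of the ranges. Uqcrq, known as a ubiquinone-binding protein, differed by 0.90 ± 0.29, and its probes disagreed in sign. The core proteins Uqcrc1 and Uqcrc2 differed by 0.75 and 0.38. Uqcrc2 was the only one of the 82 genes whose 6 stathmin knockout values all lay above its 6 wild-type values (0.137% of all genes did so upward). The Rieske iron-sulfur protein Uqcrfs1 differed by 0.55 ± 0.55 and Uqcrb by 0.47.

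In complex IV 14 of 17 differences were positive, with a median of 0.58, and 7 had an unadjusted p under 0.05. Cox7b gave -0.05, 0.66 and 1.22 in wild type and 0.86, 1.53 and 1.78 in the stathmin knockout. Its difference was 0.78 ± 0.24 (95% interval 0.30 to 1.27; adjusted p = 1.00), with 2 wild-type arrays inside the stathmin knockout range. Cox7a2 differed by 0.79, Cox6c by 0.87, Cox5a by 0.57, Cox5b by 0.58, Cox7c by 0.49 and Cox4i1, the widely expressed form of subunit 4, by 0.31. The differences below 0 were those of Cox6b2, at -0.17, Cox7a2l, at -0.10, and Cox8c, which was well above background on only 2 wild-type and 1 stathmin knockout arrays, so that its size is not given.

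In complex V 13 of 15 differences were positive, with a median of 0.35. Atp5b, the catalytic beta subunit, gave 0.90, 1.15 and 1.73 in wild type and 1.24, 1.79 and 1.99 in the stathmin knockout. Its difference was 0.53 ± 0.17 (95% interval 0.17 to 0.89; adjusted p = 1.00), with wild-type replicate 5 the only one of its group above 1.24. The alpha subunit Atp5a1 differed by 0.32 and the gamma subunit Atp5c1 by 0.18. The 3 genes for the membrane c subunit went apart, with differences of -0.14 for Atp5g1, -0.06 for Atp5g2 and 0.35 for Atp5g3.

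**Figure D2:**
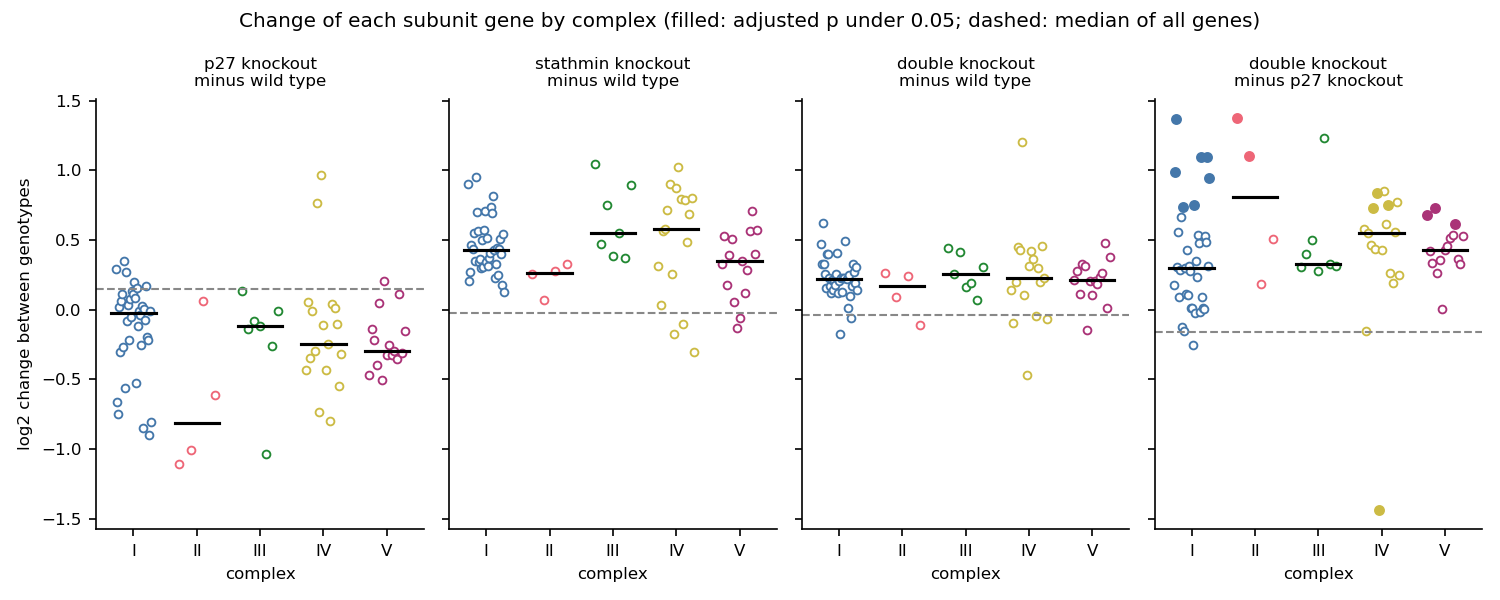
Difference in log2 ratio between genotypes (vertical axis) for each gene of complexes I to V, with a black line at the median of the complex, a dashed line at the median of all genes and filled points for genes that passed the test. In the stathmin knockout against wild type all 36 complex I genes lie above 0, and in the double knockout against the p27 knockout the complex II median is 0.80.

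Markers of other tissues moved with the stathmin knockout. All 8 brown fat markers tested were higher than in wild type, with a median difference of 1.06, and the list median was 0.86 to 2.34 in wild type and 2.79 to 4.26 in the stathmin knockout, which do not overlap. All 12 adipocyte markers were higher, with a median of 1.03, and the list median ranged from 3.04 to 4.83 in wild type and from 4.36 to 5.71 in the stathmin knockout. All 7 endothelial and all 6 macrophage markers were also higher, with medians of 0.86 and 0.58. The brown fat marker Ucp1, the uncoupling protein, stood at 5.29 in wild type and 5.71 in the stathmin knockout, and its probe was well above background on all 6 arrays of both. Of 14 markers of double-positive thymocytes 12 lay below wild type, with a median of -0.30. No marker passed the adjusted test, and the part of these tissues in the readings of the 82 genes was not tested.

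Against the p27 knockout, the double knockout had higher levels of 16 of the 82 genes and lower levels of 2 (limma's moderated test with Benjamini-Hochberg adjustment). Over all genes tested 29.2% passed, 9.73% higher and 19.5% lower. The median difference of the 82 genes was 0.41, with 74 above 0, against -0.16 and 41.2% over all genes. The median over the 82 was above 0 on 4 of 6 slides, from -0.04 to 0.77. The rises lay in complex I (7 of 36), complex II (2 of 4), complex IV (3 of 17), complex V (3 of 15) and the assembly factor Ndufaf1, and none of the 7 complex III genes whose names begin with Uqcr passed (Cyc1, the cytochrome c1 of complex III, was read with the electron carriers below). The genes called lower were Cox6b2 and Atp5s. Atp5s fell by 0.65 on the log2 scale (adjusted p = 0.0492), its probes disagreed in sign, and its difference was -0.27 without the dim arrays (adjusted p = 0.319).

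Most of these calls were lost without the 2 dim p27 knockout arrays. Without replicates 5 and 6, 3 of the 82 passed (2 higher, among them Atp5a1, and 1 lower, Cox6b2), against 14.9% of all genes (4.06% higher and 10.8% lower), and the median difference was 0.27 with 71 above 0. The medians of complexes I to V were then 0.26, 0.55, 0.30, 0.35 and 0.27. With the brightness of each array as a covariate 0 of the 82 and 0 of all genes passed, the median of the 82 was -0.07 and 32 lay above 0. In that fit 2 of the 82 genes had an unadjusted p under 0.05. The p27 and double knockout arrays did not overlap in brightness, so that fit cannot separate brightness from genotype. In the authors' deposited table, whose values follow spot brightness, 70 of the 82 passed, all higher. Nearly all of the genes called there over the whole list were higher too. The split was 10 higher to 1 lower with scale normalization and 13 to 1 with Cy5 alone. Single arrays moved the count too: 10 of the 82 passed when double knockout replicate 4 was left out, and 11 without p27 knockout replicate 5, p27 knockout replicate 6 or double knockout replicate 5. Counts given here with no share of all genes beside them show only how they moved with the arrays and the processing.

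Within complex I the rises included Ndufs8, Ndufv2, Ndufa6, Ndufa10, Ndufa11 and Ndufb6. Ndufv2, a core iron-sulfur subunit, gave -1.48, -0.38 and 0.031 in the p27 knockout and 0.29, 0.40 and 0.76 in the double knockout. It rose by 0.95 ± 0.25 (adjusted p = 0.0107), and differed by 0.67 without the dim arrays (adjusted p = 0.0558). No value of one group reached the range of the other. Ndufa11, a supernumerary subunit with an NRF1 motif in the stretch above, gave -2.21, -0.40 and 0.21 in the p27 knockout and 0.25, 0.56 and 1.08 in the double knockout. It rose by 1.37 ± 0.36 (adjusted p = 0.0103), and the groups were separated by a narrow gap. Its difference was 0.80 without the dim arrays (adjusted p = 0.0712). Ndufs8, a core iron-sulfur subunit, rose by 1.09 (adjusted p = 0.0161), and without the dim arrays it differed by 0.64 (adjusted p = 0.117). Ndufa10 rose by 0.99 (adjusted p = 0.0304) and Ndufa6 by 0.73 (adjusted p = 0.0437). Leaving out the dim arrays gave 1.01 for Ndufa10 (adjusted p = 0.0615) and 0.34 for Ndufa6 (adjusted p = 0.243), and with scale normalization Ndufa10 differed by 0.78 (adjusted p = 0.0956). Ndufb6, whose ETS-bearing stretch is shown above, rose by 0.75 (adjusted p = 0.0264). Ndufb6 differed by 0.46 without the dim arrays (adjusted p = 0.115), and with brightness as a covariate by -0.04. Ndufs1, the largest core subunit, differed by -0.01.

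Complex II held the largest median, 0.80, over its 4 genes. Sdha gave -1.45, -0.20 and 0.26 in the p27 knockout and 0.89, 0.98 and 1.38 in the double knockout. It rose by 1.37 ± 0.35 (adjusted p = 0.00933), with no overlap, and by 1.02 without the dim arrays (adjusted p = 0.0563). Sdhb, its partner in the catalytic head, gave -2.33, -1.07 and -0.78 in the p27 knockout and -0.38, -0.25 and 0.13 in the double knockout. It rose by 1.10 ± 0.30 (adjusted p = 0.0127), and by 0.83 without the dim arrays (adjusted p = 0.0639). The groups again did not overlap. The anchors Sdhc and Sdhd differed by 0.18 and 0.51 and did not pass, and without the dim arrays Sdhd differed by 0.050.

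Complex III had 7 of 7 positive differences and a median of 0.33. Uqcrfs1 differed by 1.23 ± 0.55 (adjusted p = 0.0930), a value set by p27 knockout replicate 6, at -4.38, since the median of its group was 0.31 against 0.66 in the double knockout. The difference was 0.45 without the dim arrays (adjusted p = 0.161) and -0.24 with brightness as a covariate.

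In complex IV the rises were Cox7a2l, Cox6a1 and Cox6b1. Cox7a2l, known for its part in joining complexes III and IV, gave -0.68, 0.21 and 0.37 in the p27 knockout and 0.52, 0.82 and 1.26 in the double knockout. It rose by 0.75 ± 0.23 (adjusted p = 0.0184), and the groups did not overlap. Its difference was 0.63 without the dim arrays (adjusted p = 0.0598). Cox6a1, the widely expressed form of subunit 6a, rose by 0.73 (adjusted p = 0.0445), with its spot saturated on 2 double knockout arrays, and Cox6b1 by 0.84 (adjusted p = 0.0459). Their differences were 0.58 (adjusted p = 0.154) and 0.51 (adjusted p = 0.239) without the dim arrays. Cox6b2, the form of subunit 6b known from testis, went the other way. It gave -0.91, -0.38 and 0.82 in the p27 knockout, with replicates 5 and 6 highest, and -2.11, -1.62 and -1.30 in the double knockout. It fell by 1.44 ± 0.27 on the log2 scale (adjusted p = 0.00419), and its difference was -1.07 without the dim arrays (adjusted p = 0.0214). The authors' deposited table, which follows brightness, gave 0.29 for it.

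In complex V the rises were Atp5a1, Atp5d and Atp5j2, and all 15 differences were positive, or 13 without the dim arrays. Atp5a1, the alpha subunit, gave 0.61, 0.97 and 0.99 in the p27 knockout and 1.30, 1.63 and 1.75 in the double knockout, with 5 p27 knockout arrays within 0.88 to 0.99. It rose by 0.67 ± 0.18 (adjusted p = 0.0101) and by 0.60 without the dim arrays (adjusted p = 0.0391). Atp5d, the delta subunit, rose by 0.73 (adjusted p = 0.0201) and Atp5j2 by 0.62 (adjusted p = 0.0349). Leaving out the dim arrays gave 0.54 (adjusted p = 0.103) and 0.47 (adjusted p = 0.143). Atp5g1 differed by 0.00 and Atp5b by 0.42, or by 0.24 and 0.39 without the dim arrays.

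**Figure D3:**
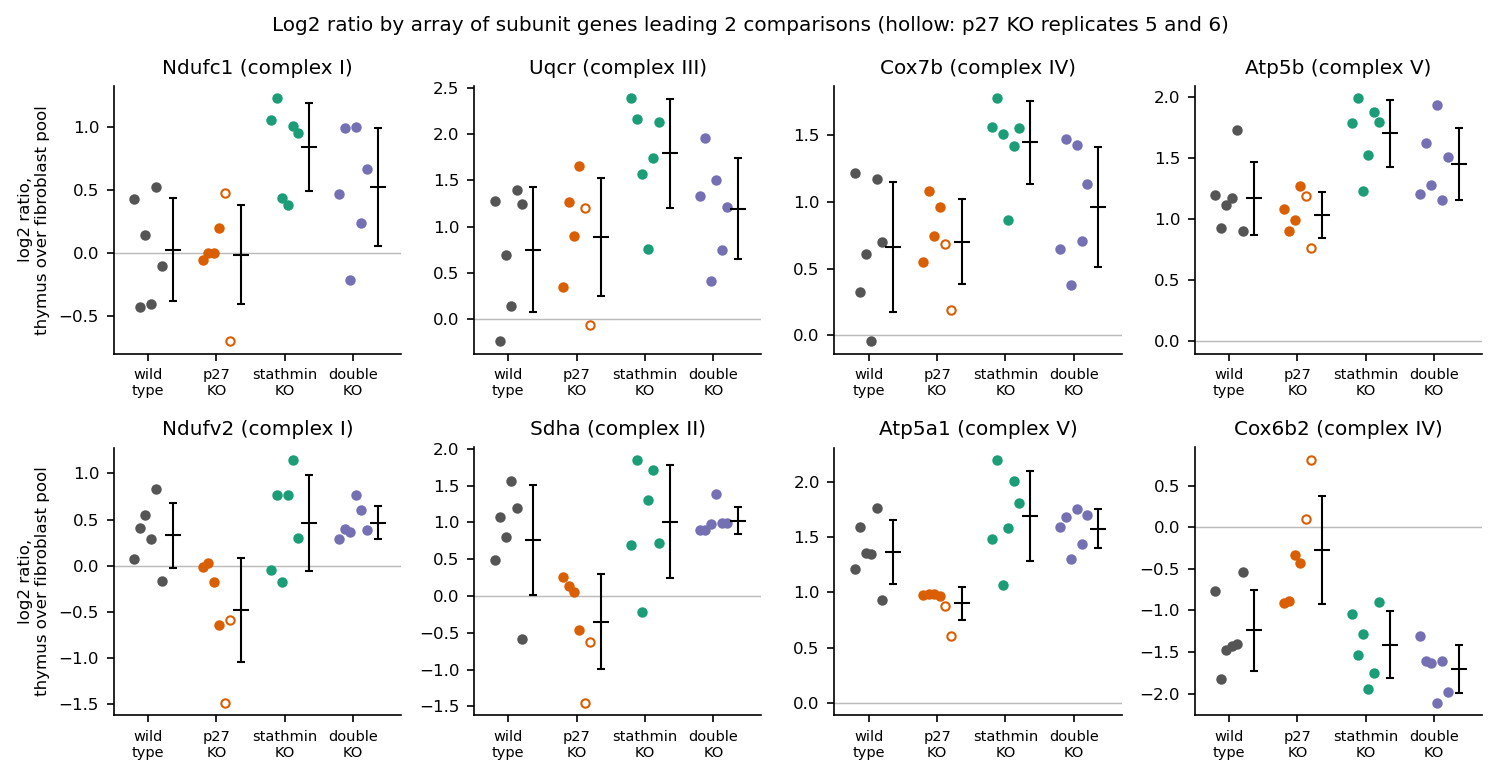
Log2 ratio (thymus over fibroblast pool, vertical axis) on every array for selected genes, grouped by genotype, with p27 knockout replicates 5 and 6 drawn as hollow points and bars for the mean ± SD. For Ndufv2 the p27 knockout spans -1.48 to 0.031 and the double knockout 0.29 to 0.76, and for Cox6b2 the p27 knockout lies above the double knockout.

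Of the 82 genes 10 were higher and 1 lower without any overlap between the groups (4.09% and 8.04% of all genes), and without the dim arrays 11 and 1 (5.58% and 12.6%). With all arrays the 10 included Atp5a1, Atp5d, Atp5h, Cox7a2l, Ndufa10, Ndufa11, Ndufv2, Sdha and Sdhb, and the 1 was Cox6b2. Other tissues were read here as well, where 9.73% of all genes rose and 19.5% fell. Of their markers 6 of 12 adipocyte, 3 of 8 brown fat and 2 of 14 skeletal muscle markers rose, and 7 of 10 fibroblast markers fell. The brown fat markers Ppargc1a and Dio2 differed by -1.18 and -0.40 and did not pass. Without the dim arrays the calls for these lists, in the same order, were 1, 1, 0 and 0, with medians of 0.95, 0.12, 1.19 and -0.62. The shares of all genes without the dim arrays are given above. Of 14 markers of double-positive thymocytes 1 fell with all arrays, with a median of -0.08, and 9 were called lower without the dim arrays, with a median of -0.97 and 12 of 14 below 0. Their part in these differences was not tested.

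**Figure D4:**
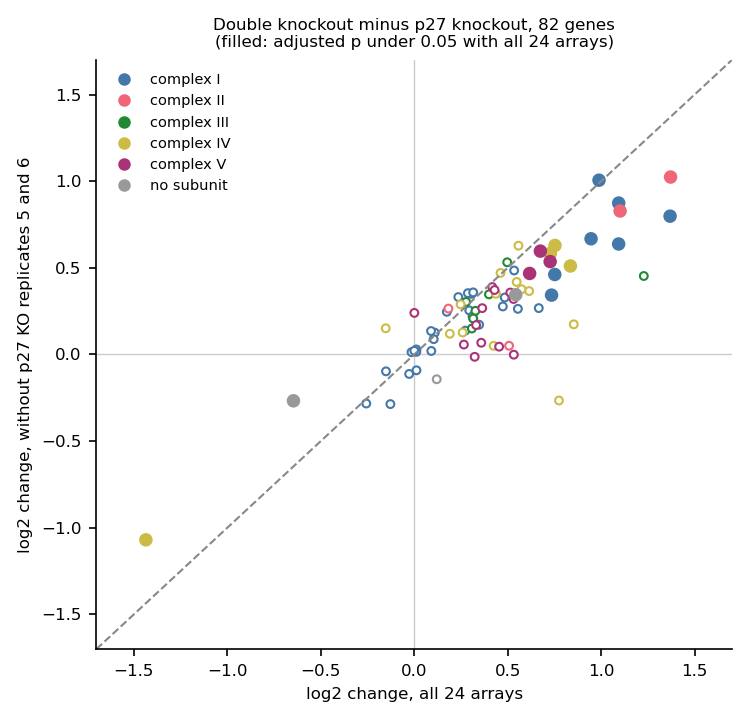
Difference between double knockout and p27 knockout in log2 ratio for the 82 genes, with all arrays (horizontal axis) and without p27 knockout replicates 5 and 6 (vertical axis), coloured by complex. Filled points passed the test with all arrays, and the dashed line marks equal values. With all arrays 18 genes pass the test and without those 2 arrays 3 do, while the median difference is 0.41 and 0.27.

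Against wild type, the p27 knockout gave no call among the 82 genes, and 0.00829% of all genes passed. The median difference was -0.13, with 27 of 82 above 0, against 0.15 and 60.2% over all genes. Without the dim arrays the median was -0.02 with 36 above 0, and with brightness as a covariate it was 0.16. An unadjusted p under 0.05 was reached by 15 of the 82, against 29.1% of all genes, and by 6 without the dim arrays. Of the 15 with all arrays, 13 were lower (15.9% of the 82, against 8.07% of all genes). The other 2 were higher (2.44%, against 21% of all genes). Complex II had the lowest median, -0.81, which was -0.45 without the dim arrays, with 4 of 4 differences then below 0. Sdha differed by -1.11 ± 0.35 (adjusted p = 0.0808) and Sdhb by -1.01 ± 0.30 (adjusted p = 0.0803), or by -0.76 and -0.74 without the dim arrays. Cox7a2l differed by -0.80 ± 0.23 (adjusted p = 0.0803), from 0.44 to 1.19 in wild type to -0.68 to 0.37 in the p27 knockout. It was the only one of the 82 whose p27 knockout values all lay below wild type (0.212% of all genes did so, and 0.477% without the dim arrays). Ndufv2 differed by -0.81, Atp5a1 by -0.47 and Atp5f1 by -0.51, and Cox6b2 by 0.97 (adjusted p = 0.0803). Without the dim arrays the differences were -0.68 for Cox7a2l, -0.53 for Ndufv2, -0.39 for Atp5a1, -0.22 for Atp5f1 and 0.60 for Cox6b2, each with an adjusted p of 0.370 or more. Atp5f1 differed by -0.27 without p27 knockout replicate 6 alone. Markers of double-positive thymocytes had a median of -0.27 with all arrays and of 0.59, with 14 of 14 above 0, without the dim arrays. Adipocyte markers had medians of -0.94 and -0.42 and fibroblast markers of 1.07 and 0.56, and their part in these differences was not tested. Adjusted p values near the threshold made the count move with single arrays: 6 of the 82 passed without wild-type replicate 6, and 5, 4 and 3 passed without p27 knockout replicates 1, 2 and 4. No share of all genes is given for these fits, nor for the members counted above without the dim arrays. Those counts are therefore no result about the 82 in particular.

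Against wild type, the double knockout read higher for most of the 82 genes, by a small amount. No gene of the 82 passed, against 0.0124% of all genes, and 1 had an unadjusted p under 0.05, against 4.77%. The median difference was 0.21, with 74 of 82 above 0, against -0.04 and 44.4% over all genes, and the median over the 82 was above 0 on 3 of 6 slides. By complex the medians were 0.22, 0.17, 0.26, 0.23 and 0.21 for complexes I to V. Ndufc1 differed by 0.49 (95% interval 0.00 to 0.99), Ndufa11 by 0.62, Uqcrc1 by 0.41, Uqcr by 0.44, Cox8a by 0.45, Cox5b by 0.45, Atp5o by 0.37 and Atp5b by 0.28, none of them past the adjusted threshold.

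Against the stathmin knockout, the double knockout read slightly lower. No gene of the 82 passed, against 0.00829% of all genes, and 3 had an unadjusted p under 0.05, against 1.29%. The median difference was -0.22, with 14 of 82 above 0, against -0.02 and 45.6% over all genes, although the authors' deposited table, which follows brightness, gave a median of 0.03. The medians of complexes I to V were -0.23, -0.01, -0.34, -0.28 and -0.15. Ndufb5 differed by -0.49 (95% interval -0.86 to -0.11), Ndufb9 by -0.47, Uqcr by -0.60, Uqcrq by -0.59 and Cox7b by -0.49, while Atp5g1 differed by 0.34 and was above 0 on 6 of 6 slides. The probes of Uqcrq disagreed in sign here too.

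The interaction asked whether the double knockout departed from the sum of the single losses. No gene of the 82, and 0% of all genes, passed, and 8 of the 82 had an unadjusted p under 0.05, against 18% of all genes. Of these, 5 were above 0 (6.1% of the 82, against 5.4% of all genes) and 3 below (3.66%, against 12.6%). The median was -0.08 against -0.17 over all genes, with 50 of the 82 below 0, against 60% of all genes. Without the dim arrays it was -0.18 against -0.14, with 61 below 0, and 4 had an unadjusted p under 0.05. For the counts without the dim arrays no share of all genes is given, so they are no result about the 82 in particular. The departures with an unadjusted p under 0.05 were those of Cox6b2, at -1.26 ± 0.39, Sdha, at 1.12 ± 0.50, Ndufa11, at 1.10 ± 0.51, Sdhb, at 1.03 ± 0.43, Cox7a2l, at 0.86 ± 0.32, Atp5s, at -0.82 ± 0.34, Ndufv2, at 0.82 ± 0.36, and Ndufb5, at -0.57 ± 0.26, with a lowest adjusted p of 0.261. The values without the dim arrays were -0.90 for Cox6b2, 0.77 for Sdha, 0.53 for Ndufa11, 0.76 for Sdhb, 0.73 for Cox7a2l, -0.44 for Atp5s, 0.54 for Ndufv2 and -0.59 for Ndufb5. Of 22 genes with several probes 12, among them Atp5s, had probes of opposite sign in the interaction. In complex III Uqcr departed by -0.73 ± 0.49 with all arrays and -0.89 without the dim ones. Uqcrq, whose probes disagreed in sign, departed by -0.58 ± 0.41 and -0.69. All these use the p27 knockout arrays, and the comparisons above share their samples, so they are no independent evidence of one another.

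Among the tissue forms of complex IV subunits, Cox7a1 had a larger SD over mice than its widely expressed counterpart Cox7a2 in each genotype, as did Cox6a2 than Cox6a1. The Cox6a1 spot was saturated on 1 wild-type, 3 stathmin knockout and 2 double knockout arrays, where its spread can be read too low. In the p27 knockout, where it was not saturated, the SD was 0.64 for Cox6a2 and 0.40 for Cox6a1. Cox8b, the heart, muscle and brown fat form of subunit 8, gave 6.71, 7.59 and 8.36 (lowest, median and highest) in the stathmin knockout. It gave 6.41, 6.86 and 7.80 in the double knockout, 6.08, 6.75 and 7.74 in wild type and 0.061, 7.28 and 8.26 in the p27 knockout. One array, p27 knockout replicate 6, was far below the others. Cox7a1, the heart and muscle form of subunit 7a, gave 3.25, 4.45 and 5.14 in the stathmin knockout. It gave 2.53, 3.75 and 4.66 in the double knockout, 2.43, 3.00 and 4.39 in wild type and -0.75, 3.34 and 4.44 in the p27 knockout. The stathmin knockout differed from wild type by 1.03 ± 0.63 for Cox7a1 and by 0.80 ± 0.88 for Cox8b, above 0 on 6 of 6 slides for both and with an adjusted p of 1.00. Cox6a2, the heart and muscle form of subunit 6a, ran from -1.09 to 3.05 in wild type and from -0.75 to 4.70 in the double knockout, with SDs of 1.43 and 2.12. Its counterpart Cox6a1 ran from 0.25 to 1.80 and from 0.94 to 1.77, with SDs of 0.52 and 0.30. Cox8a, the widely expressed subunit 8, averaged 0.69 ± 0.43 in wild type and 1.38 ± 0.72 in the stathmin knockout, where its spot was saturated on 1 array.

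The skeletal muscle marker list had a median above 2 on 6 arrays, at 4.66 in wild-type replicate 5, 2.53 in p27 knockout replicate 2, 3.87 and 4.74 in stathmin knockout replicates 5 and 6, and 5.23 and 5.00 in double knockout replicates 2 and 4, and between -0.63 and 0.68 on the other 18. The part of muscle in the Cox6a2 readings was not tested. Cox4i2, the lung form of subunit 4, was well above background on 4 of 6 arrays of the p27 knockout, 2 each of wild type and stathmin knockout and 1 of the double knockout. Cox8c was so on 3, 2, 1 and 0 arrays of the p27 knockout, wild type, stathmin knockout and double knockout, which leaves only a bound in the double knockout.

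**Figure D5:**
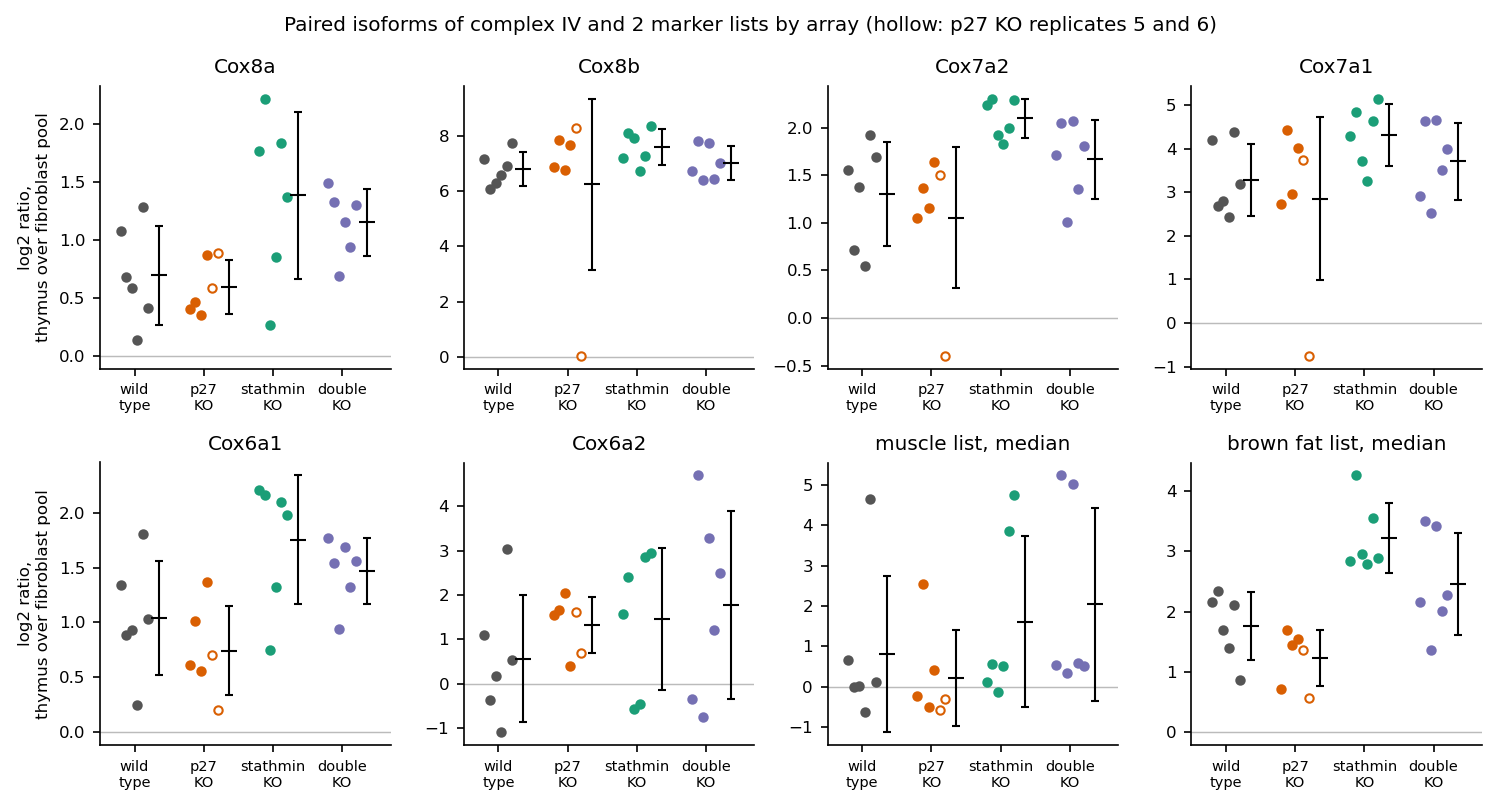
Log2 ratio (thymus over fibroblast pool, vertical axis) on every array for tissue and widely expressed forms of complex IV subunits, and the median of the muscle and brown fat marker lists, by genotype, with bars for the mean ± SD. Cox6a2 spreads from -1.09 to 3.05 within wild type, whereas Cox6a1 spreads from 0.25 to 1.80.

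Genes of neighbouring pathways were read from lists named for their role. In the stathmin knockout against wild type none of their genes passed the test. Of 13 tricarboxylic acid cycle genes 13 were above 0, with a median of 0.41, led by Mdh2, the mitochondrial malate dehydrogenase, at 0.55, and Sucla2, a succinyl-CoA ligase subunit, at 0.60. Of 11 genes for electron carriers and exchange 8 were above 0, with a median of 0.24; Etfb and Etfdh, which deliver electrons from fatty acid oxidation, differed by 1.00 and 0.80. Glycolysis genes had a median of 0.20 (14 of 16 above 0), complex IV assembly genes one of 0.19 (8 of 9), mitochondrial ribosome genes one of 0.10 (58 of 75) and proteasome core genes one of 0.07 (11 of 18). Cytosolic ribosome genes had a median of 0.00 (40 of 80) and regulators of mitochondrial biogenesis one of -0.02 (6 of 14). Over all genes the median was -0.02, as given above.

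In the double knockout against the p27 knockout, 5 of 13 tricarboxylic acid cycle genes rose and none fell, with a median of 0.70. Idh3b, a subunit of the NAD-dependent isocitrate dehydrogenase, rose by 1.15 (adjusted p = 0.0104) and differed by 0.97 without the dim arrays (adjusted p = 0.0525), when 1 of the 13 passed and the median was 0.45. Of the electron carrier and exchange genes 3 of 11 rose, with a median of 0.50: Cyc1, cytochrome c1, rose by 0.90 (adjusted p = 0.0154), Slc25a5, an ADP/ATP carrier, by 0.73 (adjusted p = 0.0162) and Cycs, cytochrome c, by 0.49 (adjusted p = 0.0418). Without the dim arrays none of the 11 passed, the median was 0.47, and these 3 differed by 0.66, 0.61 and 0.47 (adjusted p = 0.0876, 0.0703 and 0.0870). Of the mitochondrial ribosome genes 12 rose and 4 fell of 75, with a median of -0.04, and 2 and 1 without the dim arrays. Of the cytosolic ribosome genes 8 rose and 5 fell of 80, with a median of 0.23, and 0 and 4 without the dim arrays, with a median of 0.015. Over all genes 9.73% rose and 19.5% fell, and 4.06% and 10.8% without the dim arrays. Tfb1m, a methyltransferase of mitochondrial ribosomal RNA, fell by 0.64 on the log2 scale (adjusted p = 0.0166), the only one of 14 biogenesis regulators that passed, and Lrpprc, which stabilises mitochondrial messenger RNA, rose by 0.57 (adjusted p = 0.0479), the only one of 9 complex IV assembly genes. These differences were -0.36 (adjusted p = 0.0706) and 0.24 (adjusted p = 0.219) without the dim arrays, and then no gene of either list passed. Glycolysis genes had 1 fall and no rise of 16, with a median of -0.12, and no call and a median of 0.11 without the dim arrays.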

How the data were processed

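Thymus RNA of 24 mice was read on 2-colour Agilent arrays with Cy5 for thymus and Cy3 for the common pool on every array, with no dye swap, per the labels. The authors deposited the intensity of each spot and its local background in both channels, extracted with Agilent Feature Extraction 9.1.3.1 without background subtraction, per the file headers. The log10 ratios in the deposited files were spatially detrended and dye-normalized by the scanner software, per the file headers, and served as an alternative. A table of log2 values deposited by the authors also served only as an alternative. The sources used here do not say how it was made. The 24 columns followed spot brightness (r of 0.9999 or more) rather than the ratio (r of 0.0670 or less), so its scale is log2 and its centring is unknown. Its column medians for replicates 1 to 6 were 9.29, 9.36, 9.33, 8.66, 9.75 and 9.24 in wild type, 8.75, 8.75, 8.90, 9.12, 8.76 and 8.62 in the p27 knockout, 10.56, 9.46, 8.88, 9.10, 9.18 and 9.20 in the stathmin knockout, and 9.40, 9.32, 9.46, 9.17, 9.15 and 9.30 in the double knockout.

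Log2 ratios were derived with limma 3.58.1, R 4.3.3 and version 1.17.8 of data.table: normexp background correction with offset 50, loess within each array with control spots at weight 0, removal of outlier spots (134 per array on average, at most 353) and averaging of spots of a probe. A probe was kept where Cy5 was well above background (61.9% to 90.9% of spots per array) on at least 6 arrays, and the brightest kept probe stood for a gene. This left out 1 probe each of Ndufab1, Sdhc, Ndufs4 and Ndufs1, while another probe of each was kept. Of 22 members with several kept probes, 2 had probes of opposite sign in the stathmin knockout against wild type and 6 in the double knockout against the p27 knockout. The count was 9 in the p27 knockout against wild type, 8 in the double knockout against wild type and 7 in the double against the stathmin knockout. The test was limma's moderated test over all 24 arrays, with no term but genotype, and its p values were adjusted by Benjamini-Hochberg over the whole gene list (threshold 0.05). No pair of arrays held identical values (0 pairs), and the mice are separate biological replicates per the labels. The number of arrays limits the precision.

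The members and lists were chosen with earlier results of these data known. Genes were named by role, as isoform families, and, in each comparison, as the members with the lowest p: 2 each of complexes I, III, IV and V, 1 of complex II, and up to 12 that passed. Others were named where a count needed them, after their values were seen. The values of 1 member are not reported here. The script was tested on simulated data. Replicate numbers did not pair the arrays. Alternatives were no background correction, the scanner's ratios, Cy5 alone, the authors' table, other filters, scale normalization, every probe or the mean of probes, slide or replicate number as a block, array weights, brightness as a covariate, leaving out both dim p27 knockout arrays, and leaving out each array in turn.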

Additional observations from a re-analysis of the deposited data

Results flagged for a closer look

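Values that stood apart from the other 5 arrays of their genotype were looked for over 228 groups, by the gap to the nearest array relative to the group's range (critical value 0.625). Of these, 25 did so, where chance gives about 5% of groups, and 14 of the 25 were in p27 knockout replicate 6, one of the dim arrays. In that array the median over the 82 genes was -0.31, and the gene values were 0.61 for Atp5a1, -1.19 for Atp5c1, -0.63 for Atp5f1, -2.20 for Atp5g3, -1.05 for Atp5o, -0.12 for Cox5a, -1.50 for Cox6c, -0.75 for Cox7a1, -0.39 for Cox7a2, 0.061 for Cox8b, -1.67 for Ndufb6, -1.66 for Sdhd and -4.38 for Uqcrfs1, all on the log2 scale. Each was the lowest of its group. In p27 knockout replicate 5, Ndufb9 stood apart at 0.13.

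The other values lay in the remaining genotypes. In wild type they were Atp5b at 1.73 in replicate 5 and Atp5l at -0.17 in replicate 4. In the stathmin knockout they were Atp5g2 at -0.77, Atp5g3 at 1.27 and Cox7a2l at -0.22 in replicate 3, Atp5o at 0.35 in replicate 4 and Cox4i2 at -0.10 in replicate 1. In the double knockout they were Atp5l at 0.29 in replicate 3, Cox4i2 at -0.33 in replicate 1 and Sdha at 1.38 in replicate 4.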

How the results depend on the processing

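The median difference of the 82 genes kept its sign in the stathmin knockout against wild type and in the double knockout against wild type under all 14 alternatives and with each array left out. Leaving out each array in turn gave medians of 0.33 to 0.50 for the stathmin knockout against wild type, 0.14 to 0.30 for the double knockout against wild type, -0.23 to -0.01 for the p27 knockout against wild type, 0.26 to 0.49 for the double against the p27 knockout and -0.28 to -0.13 for the double against the stathmin knockout. Calls then ran from 0 to 6 in the p27 knockout against wild type and from 10 (without double knockout replicate 4) to 21 (without p27 knockout replicate 2) in the double against the p27 knockout, and were 0 in the others. In the double against the p27 knockout, 18 calls became 70 in the authors' deposited table (where all genes split 12425 higher to 190 lower, against 2345 to 4695), 11 with scale normalization, 0 with brightness as a covariate and 3 without p27 knockout replicates 5 and 6. Its median became 0.86 in the authors' deposited table and -0.067 with brightness as a covariate. The covariate fit cannot separate brightness from genotype here, since the double and p27 knockout arrays did not overlap in brightness. In the p27 knockout against wild type, 0 calls became 12 in the authors' deposited table, with a median of -0.54, and 1 with array weights. Counts with no share of all genes beside them, here and below, show only how they moved with the processing.

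Of 2242 values of named genes under the alternatives, 15 reversed their sign. In the authors' deposited table these were Cox6b2 in the p27 knockout against wild type (-0.29) and in the double against the p27 knockout (0.29), Atp5b in the stathmin knockout against wild type (-0.014), Uqcrq (0.060), Cox7b (0.098), Cox5a (0.071) and Atp5l (0.014) in the double against the stathmin knockout, and Ndufb5 (0.64), Uqcr (0.47), Uqcrq (0.43) and Cox6b2 (0.16) in the interaction. With the mean of probes Uqcrq reversed in the interaction (0.024). With brightness as a covariate Uqcrh reversed in the p27 knockout against wild type (0.072), and Uqcrfs1 (-0.24) and Ndufb6 (-0.039) in the double against the p27 knockout. The cause was not tested. The authors' table moved the median of all genes in the double against the p27 knockout from -0.16 to 0.68.

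Replicate numbers did not pair the arrays: over 36 pairs of same-numbered arrays their deviations correlated by -0.56 to 0.61, 14 pairs were over 0.1, and 3 arrays correlated best with their own number. With the replicate number as a block 15 of the 82 genes were called in the double against the p27 knockout, and 0 in the other comparisons. Arrays of the same slide were more alike: the median correlation over 36 pairs was 0.14, against 0.035 for replicate numbers. Of the slide pairs 20 were over 0.1, and 8 arrays correlated best with one of their own slide. The main test had no term for slide. With the slide as a block 22 of the 82 were called in the double against the p27 knockout. Dim arrays, saturated spots and the fixed position of each genotype limit what can be read from single genes.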
